A study of Caenorhabditis elegans with 2 samples.

Results

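The promoters examined here were those of the chemoreceptor genes of Caenorhabditis elegans. They were taken from 500 bp upstream to 200 bp downstream of each annotated transcript start of every protein-coding gene whose name carries 1 of 22 chemoreceptor family prefixes. The rule gave 1308 genes with 1420 distinct starts, of 19973 protein-coding genes with 29314 starts on the nuclear chromosomes. The question put to them was whether FLT-1 peaks lay there, and how often compared with the other 18665 genes.

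FLT-1, also named BAZ-2, is related to the BAZ2 proteins of vertebrates, which act on chromatin. It was mapped by chromatin immunoprecipitation with sequencing in whole early embryos, aged 1 hour and obtained by egg bleaching, as 2 biological replicates of 1 group. The strain, OP797, carried wgIs797, an integrated fosmid copy of flt-1 tagged with TY1, EGFP and 3xFLAG, and unc-119(+) as rescue of the unc-119 mutation tm4063. The antibody was against GFP, so the tagged transgene product was the target. There was no second condition, and no control library was used here. Both replicates were of whole organisms, so that signal from a few cells and weak signal from all cells cannot be told apart. The lists give no read counts, and the depth of each replicate is unknown. Each replicate, and both together, had long ranked lists of entries and shorter thresholded lists of peaks, each with a summit and the authors' signal value.

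Nematode chemoreceptors are G protein-coupled receptors with 7 transmembrane helices, most of them acting in the cilia of sensory neurons, where they recognise odours, tastes and pheromones. Their genes form some of the largest families of the genome and often lie in tandem arrays, many of them on the arms of chromosome V. The families are grouped by sequence into the Str, Sra and Srg superfamilies, with several families that stand alone. Of the 1308 genes, 587 belonged to the Str superfamily (srd, srh, sri, srj, srm, srn and str), 124 to Sra (sra, srab, srb and sre), 309 to Srg (srg, srt, sru, srv, srx and srxa) and 288 to the families that stand alone (srbc, srr, srsx, srw and srz).

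The promoters of 4 chemoreceptor genes held the summit of a peak in at least 1 of the 4 thresholded lists. The peak sequences at 2 of them are given here, because they show what else lies under a peak at a chemoreceptor gene. Both peaks lie over tRNA genes and are printed in the direction of the tRNA with the tRNA gene in capitals. The peak near srd-44 (WBcel235 chrX:12337932-12338161, minus strand) holds the 73 bases of F17A2.t1, a tRNA-Arg gene, and that near srh-269 (chrV:16592231-16592308, minus strand) the 72 bases of T03E6.t1, a tRNA-Gln gene.
srd-44: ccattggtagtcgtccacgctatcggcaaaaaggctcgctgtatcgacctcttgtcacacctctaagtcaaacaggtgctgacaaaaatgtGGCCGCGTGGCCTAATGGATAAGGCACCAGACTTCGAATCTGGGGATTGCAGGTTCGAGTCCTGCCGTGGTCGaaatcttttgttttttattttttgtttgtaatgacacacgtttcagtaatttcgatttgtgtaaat
srh-269: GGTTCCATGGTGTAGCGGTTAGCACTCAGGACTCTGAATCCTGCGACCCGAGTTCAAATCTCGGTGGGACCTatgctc

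The B box, a part of the internal promoter of tRNA genes, has the consensus GTTCNANNC, where N is any base. This word, searched on both strands, occurred in the printed srd-44 peak from base 144 as GTTCGAGTC and in the printed srh-269 peak from base 52 as GTTCAAATC, in each case within the capitals. The same word was found in 20.9% of chemoreceptor promoters and in 21.5% of all promoters, each a window of 701 bp. Among the pooled thresholded peaks, which are shorter than promoters, it was found in 93.6% of the 251 within 250 bp of a tRNA gene and in 12.02% of the 832 others. A match is a description of the letters and not of a bound site.

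Few chemoreceptor promoters held a peak. In the pooled thresholded list, made from both replicates together and holding 1083 peaks, the summit lay in the promoters of 3 of 1308 chemoreceptor genes against 571 of 18665 other genes. Over all genes 2.87% had one. The share was 0.229% (exact Clopper-Pearson 95% interval 0.0473% to 0.669%) for chemoreceptor genes and 3.06% (2.82% to 3.32%) for the others. If each chemoreceptor gene had the share of the other genes of its own chromosome and class of promoter GC, in classes of 2.5 percentage points, 21.9 genes would have held a summit, and the ratio of the count to this number was 0.137 (0.0283 to 0.400). Here and below the interval of a ratio covers counting error in the chemoreceptor genes alone and treats genes as independent, although neighbours in an array can share an entry.

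The other thresholded lists gave 4 chemoreceptor genes each. In the conservative list, of 977 peaks, the counts were 4 chemoreceptor genes and 521 other genes, with 2.63% of all genes, and the ratio was 0.198 (0.0541 to 0.507). The list of replicate 1 alone, of 618 peaks, held 4 chemoreceptor genes and 298 others, with 1.51% of all genes, at a ratio of 0.345 (0.0940 to 0.881). The list of replicate 2 alone, of 747 nuclear peaks, held 4 and 368, with 1.86% of all genes, at a ratio of 0.286 (0.0779 to 0.730). The share of chemoreceptor genes was thus below that of other genes of like chromosome and GC in each list, with higher ratios in the list of each replicate alone than in the pooled list.

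The same 4 genes made up all of these counts, so that 4 chemoreceptor genes against 696 others had a summit in any thresholded list, with 3.50% of all genes. All 4 had one in the lists of both replicates, whereas of 480 other genes with a summit in either replicate list 186 had it in both. For genes with a summit in both replicate lists, 0.951% of all genes, the ratio was 0.613 and its interval, 0.167 to 1.57, included 1. A lower share at chemoreceptor promoters was therefore not detectable among peaks found in each replicate separately, where only 6.53 genes would have been counted at the share of the others.

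**Figure D1:**
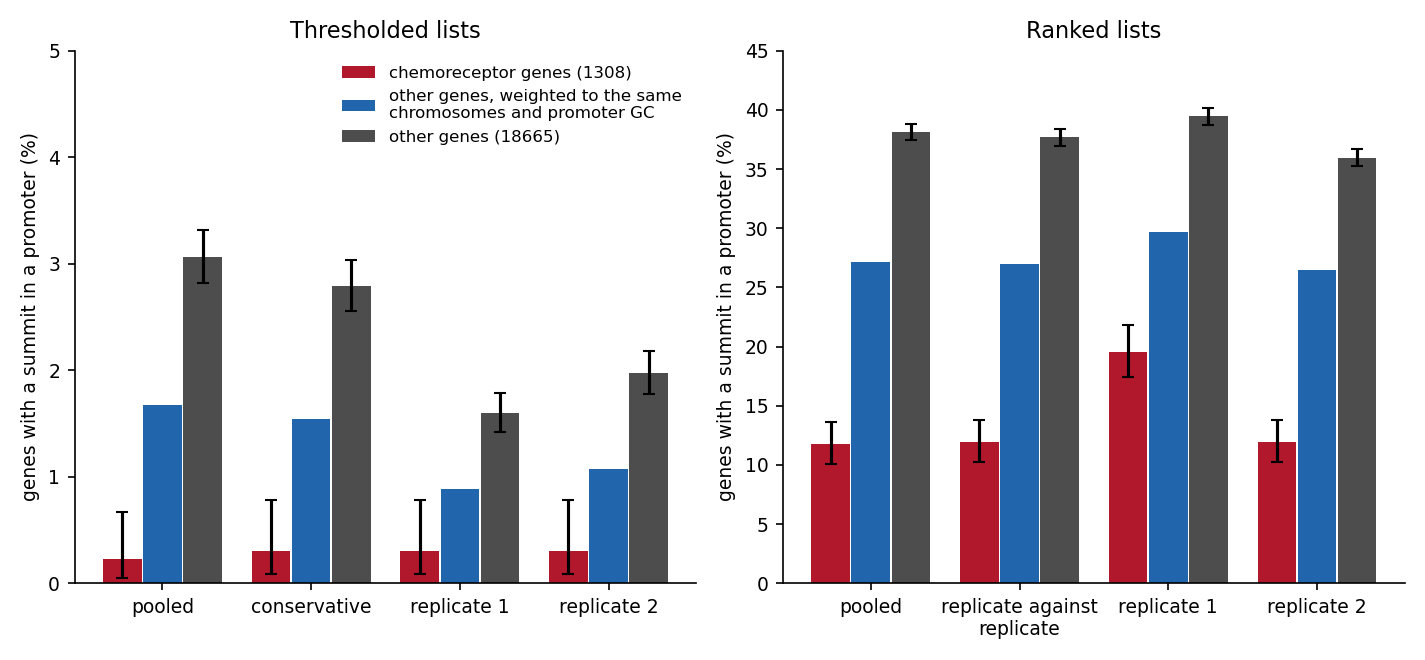
Percent of genes with a peak summit in a promoter, for chemoreceptor genes (left bar of each group), for other genes weighted to the same chromosomes and promoter GC (middle bar) and for all other genes (right bar), in the 4 thresholded lists (left panel) and the 4 ranked lists (right panel, on a different scale). Error bars are exact 95% intervals. In the pooled ranked list the bars stand at 11.8%, 27.1% and 38.1%, and replicate 1 has the highest chemoreceptor bar, 19.6%.

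Of the 4 thresholded peaks, those at srh-269 and srd-44 lay over a tRNA gene. At srh-269, on chromosome V, the signal of the authors for the peak was 127 in the pooled list, 64.7 in replicate 1 and 60.6 in replicate 2. Its summit lay 252 bp upstream of the srh-269 start and inside T03E6.t1, with the noncoding RNA gene T03E6.13 on the opposite strand of the tRNA gene. The pooled peak was 78 bp wide, and 13.8% of its 50-base words were unique in the genome. At srd-44, on chromosome X, the signal was 66.4 in replicate 1 and 47.6 in replicate 2, with the summit of the conservative peak 393 bp upstream of the srd-44 start and inside F17A2.t1. Its peak had a signal of 119 in the conservative list and in the replicate-against-replicate ranked list, and was in neither the pooled thresholded nor the pooled ranked list.

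The other 2 peaks lay over no tRNA gene. At srh-16 the signal was 120 in the pooled list, 74.5 in replicate 1 and 40.1 in replicate 2. The summit lay 56 bp upstream of srh-16. At sri-5, on chromosome I (peak at chrI:11182437-11182666), the signal was 111 in the pooled list, 53.4 in replicate 1 and 56.9 in replicate 2. That summit lay 243 bp upstream of sri-5 and 489 bp from the start of rsr-1, which points the other way and encodes a serine and arginine rich protein related to splicing coactivators. By signal these peaks stood at rank 252 (srh-269), 280 (srh-16) and 312 (sri-5) of 1083 in the pooled thresholded list.

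The arrangement of genes at the start was looked at after these peaks had been seen. A tRNA gene overlapped the promoters of 4 chemoreceptor genes, of which 2 had a summit in the conservative list, against 25 of 65 other genes with a tRNA gene there. Among genes without a small RNA gene in the promoter but with a divergent neighbour within 1000 bp that is no chemoreceptor gene, 2 of 84 chemoreceptor genes and 265 of 3293 others had a summit in that list. Where the divergent neighbour was itself a chemoreceptor gene, the counts were 0 of 40 chemoreceptor genes and 3 of 84 others. Of the 1176 chemoreceptor genes with neither a small RNA gene in the promoter nor a divergent neighbour, 0 had a summit in the conservative list. Among others it was 212 of 15144. The classes were drawn from the places of the 4 peaks, so this 0 was fixed beforehand and is no separate result. In the pooled thresholded list, genes with a tRNA gene in the promoter had a summit in 1 of 4 cases against 28 of 65. In all, 126 of 1308 chemoreceptor genes (9.63%) and 3405 of 18665 other genes (18.2%) had a divergent neighbour within 1000 bp.

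Entries below the threshold were read from the ranked lists, which hold all entries before the threshold on the irreproducible discovery rate (IDR), an estimate of how likely an entry is not to recur between its 2 inputs. In the pooled ranked list, of 48126 entries, a summit lay in the promoters of 154 chemoreceptor genes, 11.8% (10.1% to 13.6%), and of 7120 other genes, 38.1% (37.5% to 38.8%), with 36.4% of all genes. The share of other genes weighted to the same chromosomes and GC was 27.1%, or 354.9 genes, and the ratio was 0.434 (0.371 to 0.503). In the replicate-against-replicate list the ratio was 0.442. In replicate 1 the number was 256, or 19.6%, with 38.2% of all genes, at a ratio of 0.660 (0.588 to 0.736). In replicate 2 it was 156, or 11.9%, with 34.4% of all genes, at a ratio of 0.450 (0.385 to 0.521). The intervals of the ratios of replicate 1 and of the other 3 ranked lists did not overlap.

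Most chemoreceptor promoters with an entry in 1 replicate had none in the other. An entry in the ranked lists of both replicates was found for 50 chemoreceptor genes, 3.82% of the 1308, and for 4109 other genes, 22.01% of theirs, with 20.8% of all genes. The 50 were 19.5% of the chemoreceptor genes with an entry in replicate 1 and 32.1% of those with one in replicate 2. The 4109 were 55.8% and 61.2% of the other genes with an entry in replicate 1 and in replicate 2. The ratio for entries in both replicates was 0.267 (0.199 to 0.349), below that of either replicate alone. Lower shares in each replicate by themselves lower the overlap and this ratio. Neither was set against the overlap of unrelated lists, so neither is a separate result on agreement between replicates. The 50 genes came from 18 of the 22 families, 33 of them lay on chromosome V, and 36 were also in the pooled ranked list. A gene counted in both lists need not have its entries at the same position. No entry in any of the 8 lists was found for 885 chemoreceptor genes, 67.7%, and for 7467 other genes, 40.0%, with 41.8% of all genes.

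The pooled ranked entries at chemoreceptor promoters had a lower median signal than those at promoters of other genes. It was 17.6 over 178 entries against 21.05 over 8726 entries. The highest signal per gene, over all its promoters, had a median of 19.02 (quartiles 14.4 and 23.6) over the 154 chemoreceptor genes. It was 23.3 (17.7 and 31.7) over the 7120 other genes of the pooled ranked list. Other genes had more starts per gene, 1.49 against 1.09, and the signals were not matched for chromosome or GC. Signal is the authors' value, on an unstated scale, and was compared within 1 list alone. Of the 178 entries in these promoters, 106 were below the median of the whole list, and 5 (2.81%) had an IDR of at most 0.05, against 1849 (3.84%) of all 48126 entries. Of the 178, 9 lay in a promoter of a gene outside the chemoreceptors as well. A small RNA gene (tRNA, snRNA or snoRNA) lay at most 250 bp away from 4 of them (2.25%), against 1.39% of the 8726 entries in promoters of other genes. The summit lay inside the body of a protein-coding gene for 63 (35.4%), against 54.0% of the entries of other genes. Without the shared entries, 146 chemoreceptor genes kept an entry, 11.2% of the 1308.

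**Figure D2:**
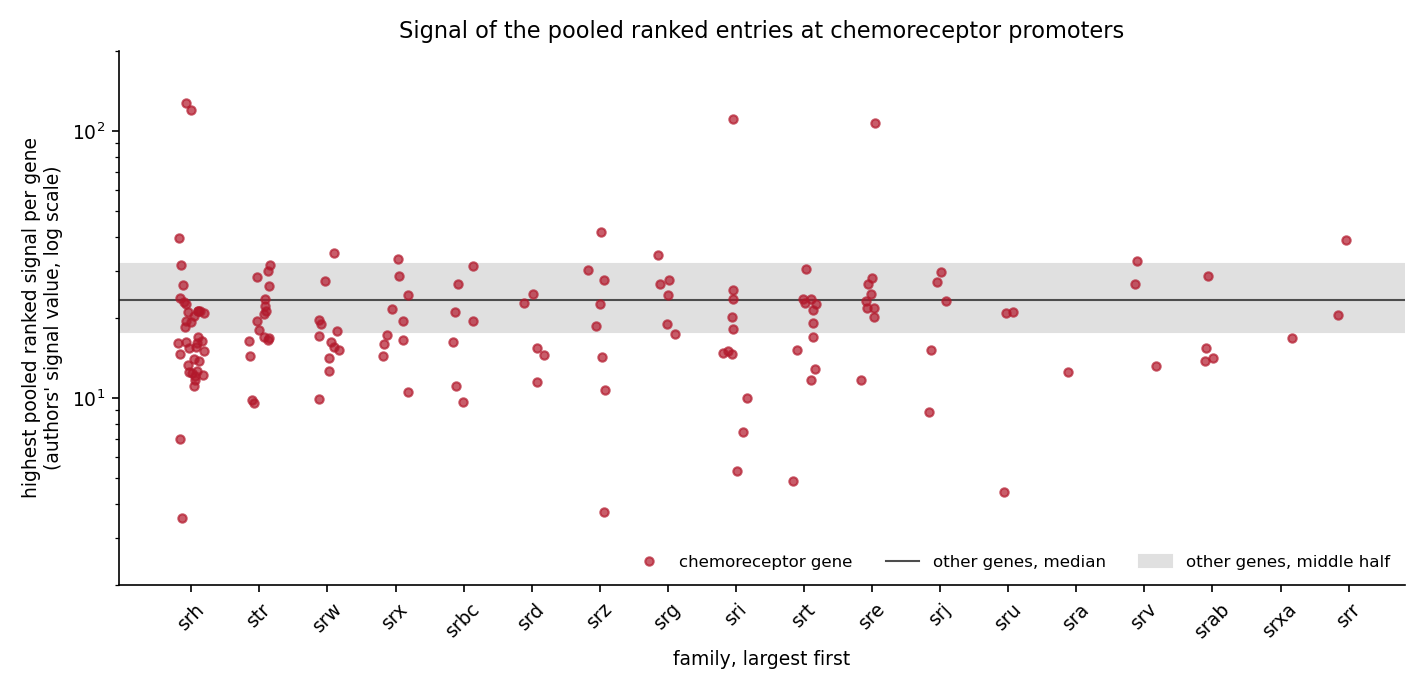
Highest signal of a pooled ranked entry in each of the 154 chemoreceptor genes that had one (points), by family with the largest first, on a log scale, with the median (line, 23.3) and the middle 50% (band, 17.7 to 31.7) of other genes. The 4 points above 100 are srh-269, srh-16, sri-5 and sre-47, and most others lie at or below the line.

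After the genes with a thresholded peak, sre-47 on chromosome II stood highest, with a pooled ranked signal of 107, 37.8 in replicate 1 and 67.2 in replicate 2, the summit 377 bp upstream. Its score of 1000 was above the lowest score of the pooled thresholded list, 831, yet it was in no thresholded list. It was 1 of 175 entries left out in this way, and the only 1 of them in a chemoreceptor promoter. On average 28.5% of the 50-base words in the left-out entries were unique in the genome, against 87.9% in the entries kept, and 35.9% in the sre-47 entry. The promoter of srbc-38, on chromosome V, overlapped a peak of signal 65.6 in the pooled thresholded list and 42.4 in replicate 2, without its summit, which lay 574 bp upstream.

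The other 9 genes of highest pooled ranked signal came next, well below sre-47. They were srz-97 (42.0), srh-34 (39.9), srr-3 (39.0), srw-85 (34.8), srg-34 (34.2), srx-14 (33.2), srv-4 (32.5), str-253 (31.5) and srh-171 (31.4), from 8 families. The strongest entries of srr-3, srw-85, srg-34 and srx-14 were overlapped by an entry in each replicate, with signals of 23.3, 21.2, 22.1 and 14.1 in replicate 1 and 15.0, 16.7, 14.7 and 15.3 in replicate 2. That of srv-4 was overlapped in replicate 2 alone and those of srz-97, srh-34, str-253 and srh-171 in replicate 1 alone. Of the 9, the srz-97 entry had an IDR of at most 0.05, with a −log10 IDR of 1.96 and 51.9% unique 50-base words, and the others did not.

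By family, the lower share was broad in the pooled list and less so in replicate 1. In 20 of the 22 families no promoter held a summit of the pooled thresholded list, the exceptions being srh and sri, and in 19 none held one in any thresholded list. In the pooled ranked list the share was below that of other genes of the same chromosome and GC in 21 families, and in all 17 families of at least 20 genes. In 14 families the interval lay wholly below that share. In the ranked list of replicate 2 the share was below that of such other genes in 21 families, with the interval wholly below in 16. In replicate 1 it was below in 17 families, and in 15 of the 17 of at least 20 genes, with the interval wholly below in 9. The families at or above in replicate 1 were srbc with 21 of 70 (30.0% against 25.2% for other genes), srab with 7 of 23 (30.4% against 23.4%), srxa with 5 of 17, srr with 4 of 9 and the only srn gene. No adjustment was made for looking at 22 families.

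Within the Str superfamily, whose best known receptor, odr-10, detects diacetyl, the order of the families differed between lists. In the pooled ranked list the srh family, the largest, had an entry in 38 of 220 promoters, 17.3% (12.5% to 22.9%), against 27.9% for other genes. The str family, to which odr-10 belongs by sequence, had one in 17 of 193, 8.81% (5.21% to 13.7%), against 25.9%. These 2 intervals overlapped, and str was the higher in replicate 1, with 43 genes (22.3%) against 44 of the 220 srh genes, while replicate 2 had 22 of str (11.4%) and 35 of srh (15.9%). The srd family had 5 of 67, 7.46% against 31.3%, with 14 in replicate 1 and 10 in replicate 2. The srj family had 5 of 39, 12.8% against 26.2%, with 6 and 2 in replicates 1 and 2. In sri, of which sri-14 is known from the sensing of odours at high concentration, it was 11 of 61, 18.0% (9.36% to 30.0%), against 36.03%, with 17 in replicate 1 and 5 in replicate 2. The small families srm and srn had none in 6 and in 1 promoters.

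In the Sra superfamily, sra had 1 of 35 promoters with an entry, 2.86% (0.0723% to 14.9%), against 31.2% for other genes, and sre had 9 of 54, 16.7% against 31.0%. The srab family had 4 of 23, 17.4%, against 20.5%, well within its interval of 4.95% to 38.8%, and srb had 0 of 12, with an upper limit of 26.5%, just above the 26.04% of other genes. In the Srg superfamily, which holds pheromone receptors such as those of srg-36 and srg-37, srt had 12 of 61, 19.7% (10.6% to 31.8%), against 27.2%, with 16 in replicate 1 and 7 in replicate 2. The srg family had 6 of 61 (9.84% against 30.3% for other genes) and sru had 3 of 39 (7.69% against 23.5%). The share was 3 of 30 in srv against 28.7%, 9.90% in srx (10 genes) against 25.7%, and 5.88% in srxa (1 of 17) against 23.4%. Within the superfamily no order held over the lists, since srxa stood above srt in replicate 1, and srg, srv and srx did in replicate 2.

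Among the families that stand alone, srsx had 0 of 37, with an upper limit of 9.49%, against 21.8% for other genes. The srw family had 12 of 109 (11.0%), srbc 7 of 70 and srz 8 of 63 (12.7%), against 24.4%, 22.4% and 28.5% for other genes. The srr family was the exception with 2 of 9, 22.2% against 21.0%, with an interval of 2.81% to 60.0%. Summed by group, the ratios were 0.457 in Str, 0.395 in Sra, 0.423 in Srg and 0.413 in the families that stand alone, so the groups were close to each other. They ran from 0.585 to 0.695 in replicate 1 and from 0.417 to 0.513 in replicate 2.

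**Figure D3:**
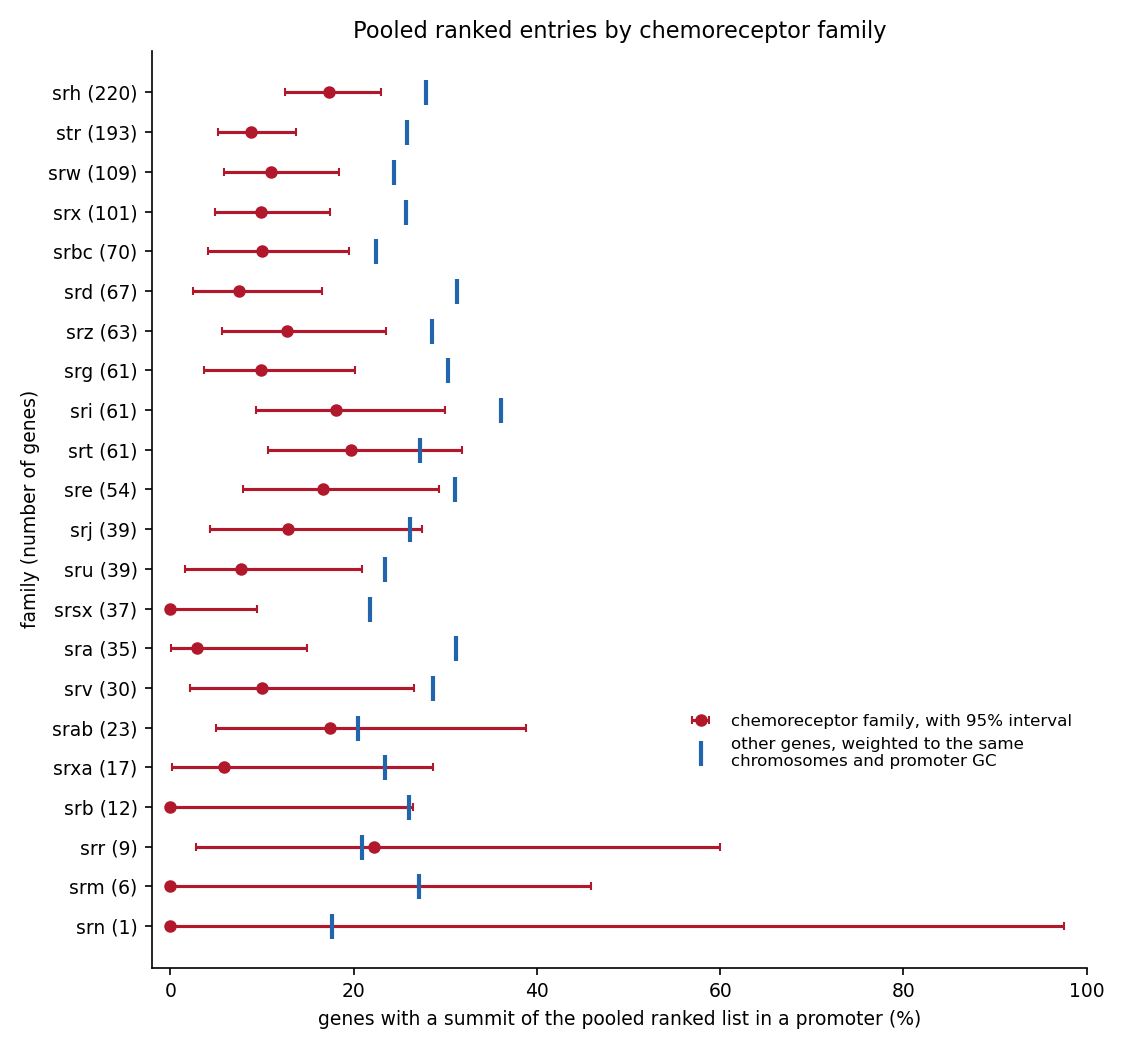
Percent of genes of each chemoreceptor family with a pooled ranked summit in a promoter (points, with exact 95% intervals) and the share of other genes weighted to the same chromosomes and promoter GC (vertical ticks), with the family size in brackets. Points lie left of the ticks in 21 of 22 families, and srr, with 9 genes, lies just right of it.

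Receptors of known use in sensory neurons, chosen for that and not for their values, were looked up as well. They were the neuron markers sra-6 and sra-9, the olfactory regulator sra-13, the repellent receptor srb-6, the pheromone receptor genes srbc-64, srbc-66, srg-36, srg-37, srx-43 and srx-44, the odour receptor gene sri-14, srsx-3 and str-2, which mark the 2 forms of the AWC neuron, and str-217, known from the response to the repellent DEET. Of these 14, 0 had a summit in a thresholded list, 0 had one in the pooled ranked list and 11 were in no list. Over all chemoreceptor genes these shares were 0.229% in the pooled thresholded list, 11.8% and 67.7%, so with 14 genes the counts were not distinguishable from those of the chemoreceptors as a whole. The sri-14 promoter had 0% unique 50-base words and every such word was unique in the promoters of the other 13. The exceptions were srg-36 with a signal of 15.8 in the replicate-against-replicate list, str-217 with 14.9 in replicate 1 and srbc-64 with 17.1 in replicate 2.

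By chromosome, 888 of the chemoreceptor genes (67.9%) lay on V, 169 on II, 153 on IV, 34 on I, 33 on X and 31 on III. On V the pooled ranked share was 12.4% (110 of 888) for chemoreceptor genes and 29.3% for other genes, or 24.3% at the same GC, a ratio of 0.509. The ratio was 0.401 on II (24 of 169), 0.281 on IV (12 of 153), 0.2201 on I (3 of 34), 0.329 on X (3 of 33) and 0.149 on III (2 of 31), below 1 on all 6 chromosomes. The genes on V thus accounted for most of the entries by number. The ratio was below 1 on all 6 chromosomes in each replicate too, and the highest was that of X in replicate 1 (0.812, 8 of 33) and that of V in replicate 2 (0.489). In the pooled thresholded list, V had 2 chemoreceptor genes against 13.4 at the share of other genes, I had 1 against 1.10, and the other chromosomes 0.

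The arms, the parts of each autosome outside its middle 50%, held 789 chemoreceptor genes (60.3%) against 6856 other genes (36.7%). On the arms of V, 89 of 573 chemoreceptor genes (15.5%) and 614 of 1797 others (34.2%) had a pooled ranked entry. In the centre of V, the counts were 21 of 315 (6.67%) and 589 of 2309 (25.5%). Against other genes of the same part and GC class, the ratio was 0.527 on the arms and 0.360 in the centre of V. On the arms of II, 23 of 116 chemoreceptor genes (19.8%) and 644 of 1541 others (41.8%) had an entry, at a ratio of 0.486. In the centre of II it was 1 of 53 (1.89%) and 637 of 1739 (36.6%), at a ratio of 0.0706. Against other genes of the whole chromosome at the same GC, the centre of II had a pooled ratio of 0.0650. By that measure it had 6 chemoreceptor genes in each replicate, at ratios of 0.374 and 0.398, so its low pooled ratio rests on that list. The same measure gave 0.601 on the arms and 0.308 in the centre of V in the pooled list. The shares of chemoreceptor genes and of other genes were both higher on the arms of V than in its centre.

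Chemoreceptor promoters were poorer in GC, with a median of 33.1% (quartiles 31.0% and 35.4%) against 35.1% (32.7% and 37.8%) for other genes. In both sets, promoters with a pooled ranked entry were richer in GC than those without: 34.6% with and 32.8% without an entry for chemoreceptor genes, and 36.2% and 34.5% for other genes. On V, the 6 classes with at least 20 chemoreceptor genes are given here, and the share was higher in the GC-rich than in the GC-poor of them in both sets. Outside these classes other genes did not follow that order, with 32.5% (13 of 40) in the class that ends at 27.5% GC and 33.3% (8 of 24) in the class that ends at 52.5%. For chemoreceptor genes the share was 5.61% (6 of 107) against 16.6% for other genes at 27.5% to 30.0% GC. It was 9.31% (23 of 247) against 17.6% from 30.0% to 32.5%, and 11.97% (34 of 284) against 21.6% from 32.5% to 35.0%. It was 17.1% (24 of 140) against 32.9% from 35.0% to 37.5%, and 16.9% (11 of 65) against 40.8% from 37.5% to 40.0%. In the class from 40.0% to 42.5% it was 40.0% (10 of 25, interval 21.1% to 61.3%) against 47.7%, and the intervals overlapped there.

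**Figure D4:**
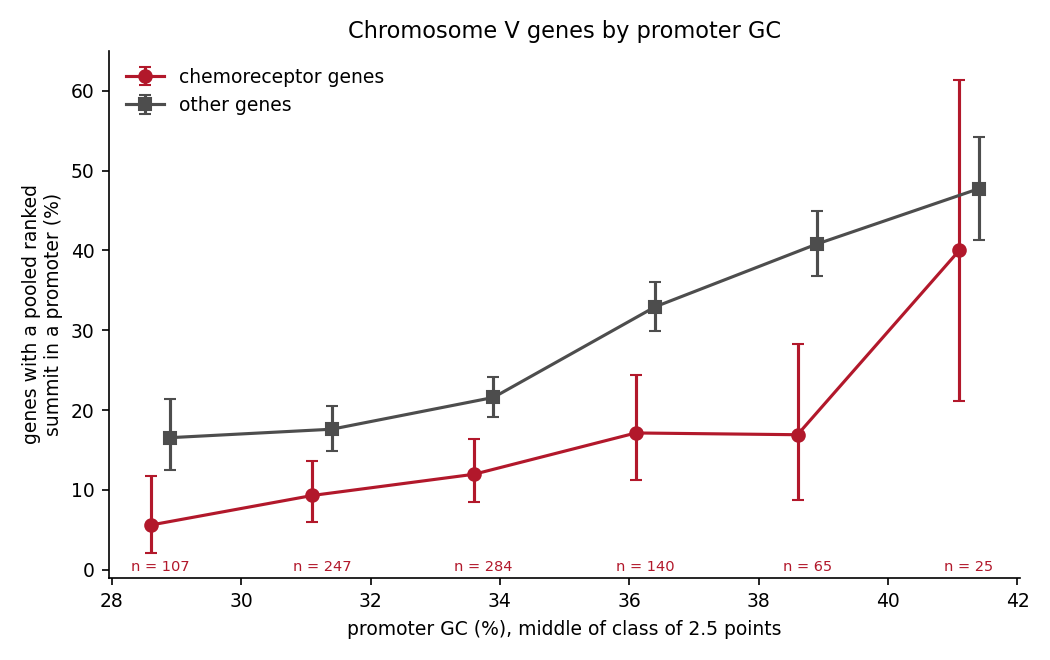
Percent of chromosome V genes with a pooled ranked summit in a promoter by promoter GC, for chemoreceptor genes (circles) and other genes (squares), in GC classes with at least 20 chemoreceptor genes, whose numbers stand at the bottom. Error bars are exact 95% intervals. The chemoreceptor points lie below the others in all 6 classes, with overlapping intervals in the class from 40.0% to 42.5%.

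Summits around the first start differed in level between the sets, and whether their position differed in shape was not tested. Among chemoreceptor genes, 25 of 1308, 1.91% (1.24% to 2.81%), had a pooled ranked summit in the 100 bp bin that begins 200 bp upstream, and the bins from 1500 to 501 bp upstream ran between 1.53% and 2.60%. Among other genes the same near bin held a summit in 7.06% (6.69% to 7.43%), and the far bins ran between 4.63% and 4.87%. The first 100 bp from the start on held 14 summits, 1.07% (0.586% to 1.79%), against 4.85% for other genes. That last count depended on the list, with 42 (3.21%) in replicate 1 against 5.01% of other genes and 22 (1.68%) in replicate 2 against 4.39%. In the near bin, replicate 1 had 2.83% (2.00% to 3.88%) against 6.71%, and replicate 2 had 1.53% (0.936% to 2.35%) against 6.32%. The far bins of chemoreceptor genes had medians of 2.68% and 1.68% in these lists. The rise of summits just upstream of the start seen for other genes was thus not detectable for chemoreceptor genes in any of these 3 lists. The intervals leave room for a small rise, and the bins were not matched for GC. The median of the far bins, 2.29% for chemoreceptor genes against 4.72% for others, was lower as well, so that the difference was not limited to the promoter.

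On V alone the near bin held 1.80% of chemoreceptor genes against 5.02% of others, and the far bins had medians of 2.08% and 3.75%. In the first 100 bp from the start on, V had 1.01% against 3.58% in the pooled list and 1.24% against 3.29% in replicate 2, but 4.05% (2.85% to 5.57%) against 4.19% in replicate 1. The start used was the annotated one, which coincided with the start codon in 78.2% of chemoreceptor genes against 19.8% of other genes, so that for most chemoreceptor genes no untranslated sequence upstream of the coding part was annotated. Chemoreceptor genes also had fewer annotated starts, 1.09 per gene against 1.49, and thus fewer promoters to be hit. With the 5'-most start of each gene alone, an alternative chosen after the values had been seen for this list, the ratio in the pooled ranked list was 0.485 against 0.434 with all starts.

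**Figure D5:**
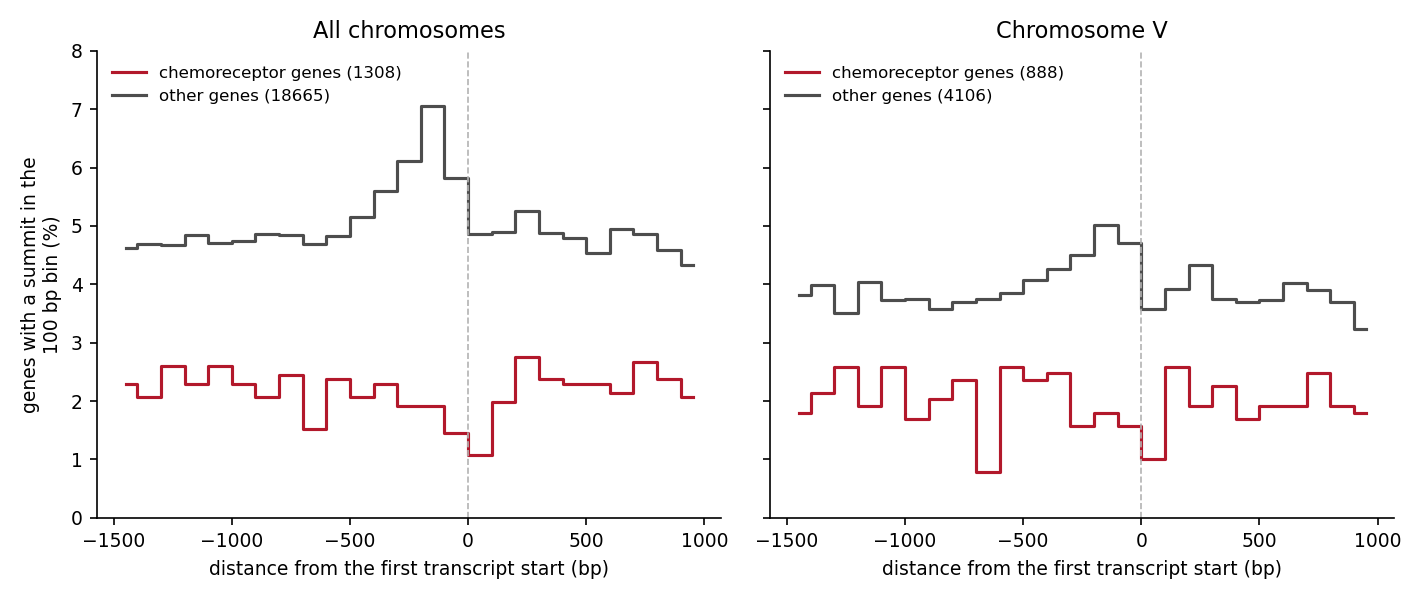
Percent of genes with a pooled ranked summit in each 100 bp bin by distance from the first annotated transcript start (dashed line, upstream to the left), for chemoreceptor genes and other genes on all chromosomes (left) and on V (right). On all chromosomes, chemoreceptor genes stay between 1.07% and 2.75%, while other genes peak at 7.06% upstream of the start.

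Long stretches of V without a thresholded summit held many of the genes. The stretch with most chemoreceptor genes ran for 1356 kb between pooled thresholded summits (chrV:2674025-4029920) and held 144 of them, led by srw, str, srh and srx, among 358 protein-coding genes. Within it, 16 of the 144 chemoreceptor genes (11.1%) and 59 of the 214 others (27.6%) had a pooled ranked entry. The next ran for 1156 kb (chrV:16795174-17951386), with 12 of 87 chemoreceptor genes (13.8%) and 34 of 175 others (19.4%). Of the 8 stretches with most chemoreceptor genes, 6 had a lower share of chemoreceptor than of other genes with an entry. The other 2, both on V, had a higher one, with 8 of 30 (26.7%) against 17 of 76 (22.4%) and 6 of 24 against 17 of 77 (22.1%). The median distance from a start to the nearest thresholded summit on V was 78.8 kb for chemoreceptor genes and 53.7 kb for other genes. On the arms of V alone it was 107.7 kb and 87.9 kb, and 64.5% of chemoreceptor genes of V against 43.8% of others lay there.

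Other large gene families were set beside the chemoreceptors by the same measure. The ratio in the pooled ranked list set each family against genes of the same chromosome and GC outside that family and outside the chemoreceptors. It was 0.434 for chemoreceptor genes, 0.498 for the detoxification genes (ugt and cyp, 19 of 141) and 0.506 for the cuticle collagens (33 of 156). MATH and BTB domain genes stood at 0.560 (18 of 90) and neuropeptide receptors at 0.5755 (15 of 81). The ratio was 0.608 for C-type lectins (54 of 239), 0.656 for F-box genes (80 of 322) and 0.9155 for nuclear hormone receptors (81 of 269). All 7 other families thus had ratios below 1 too, and the differences between families were not tested. In the pooled thresholded list these families had 0 of 141, 1 of 156, 0 of 90, 0 of 81, 2 of 239, 2 of 322 and 4 of 269 genes, in the same order.

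Genes of the chemosensory pathway made a list of 36. It included the receptor gene odr-10 with G proteins, guanylyl cyclases, channels, ciliary transport and the transcription factors of sensory neurons, and all 36 were found. Of these, 15 (41.7%, 25.5% to 59.2%) had a pooled ranked entry, where 12.2 would have had one at the share of other genes of the same chromosome and GC. In the pooled thresholded list 1 of the 36 had a summit, daf-19, the transcription factor of ciliary genes, with a signal of 54.9. The daf-19 promoter had a summit in the thresholded list of replicate 1 but not in that of replicate 2. The receptor gene odr-10, 1 of the 36 and with a name outside the rule, had an entry in the ranked list of replicate 2 alone. Among 320 pseudogenes with chemoreceptor names, 0 had a thresholded summit (upper limit 1.15%) and 35 (10.9%, 7.74% to 14.9%) had a pooled ranked one, near the 11.8% of the genes.

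How well reads could be placed differed little between the sets by the measure at hand. Promoters with at least 95% of their 50-base words unique in the genome made up 89.3% for chemoreceptor genes and 89.4% for other genes. With the rest left out, the ratio was 0.158 in the pooled thresholded list and 0.423 in the pooled ranked list. The part of repeated sequence within arrays in these shares was not tested.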

How the data were processed

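The 8 peak lists used were deposited on the ce11 assembly per the file headers and labels, which is the WBcel235 sequence. Aligner and peak caller were not given in the sources used here. For signal, the authors deposited a value per peak on an unstated scale, the deposited score is a whole number up to 1000, and the deposited −log10 IDR stands in the ranked lists, which hold entries before the IDR threshold. In all 4 ranked lists the score was 125 times log2(1/IDR), capped at 1000, to within 1. The IDR limit of 0.05 used above was chosen here. By this relation the lowest score of the pooled thresholded list, 831, stands for a stricter limit. The lists give no read counts, so depth is unknown. Precision is limited by the number of genes, and intervals are exact Clopper-Pearson intervals at 95% that cover counting error only. Whether the replicates came from separate cultures is not stated.

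Genes and starts came from Ensembl release 115, with RefSeq names matched for 46881 of 46926 genes, and sequences from the RefSeq WBcel235 assembly. Peaks on the mitochondrial genome, 20 in the thresholded list of replicate 2, were left out. Coordinates are 1-based. A gene was counted when a summit lay in a promoter of any of its starts. GC, unique words and gene arrangement were taken at the 5'-most start. The number of chemoreceptor genes at the share of the others was the sum, over chromosome and GC class, of their number times the share of other genes of that class. This was tested on simulated data. No set test was run, since the genes, lists and rules were chosen with earlier results of these data known. Genes were named if they had a summit in any thresholded list, overlapped a pooled thresholded peak or were among the 10 others of highest pooled ranked signal. The genes beside those peaks and all families were named too, except 1 neighbour that is not reported here. The known receptors, the gene arrangement, the position around starts, the peak-free stretches and the shares of families and chromosomes in each replicate were outside that rule and were added after values had been seen. Alternatives covered the list, each replicate alone, signal, overlap, promoter width, starts, small RNA genes, unique words, names, nearest start, GC classes, strata and divergent neighbours. Python 3.11.15 was used with NumPy 2.4.6, pandas 2.3.3, SciPy 1.17.1 and Matplotlib 3.10.9, and bedtools 2.31.1 gave the same gene counts, with a difference of 0.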

Additional observations from a re-analysis of the deposited data

How the results depend on the processing

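No alternative brought a ratio of chemoreceptor to other genes to 1 or above. The count of 3 chemoreceptor genes with a promoter peak ran from 2 to 6 over 14 alternatives and was 4 in each replicate alone. It was 6 with promoters from 1000 bp upstream, which added srbc-38, sre-23 (signal 632 at 618 bp upstream, within 250 bp of a small RNA gene) and sre-1 (171 at 925 bp). The ratio of 0.137 ran from 0.0851, with genes that have a divergent neighbour left out, to 0.613, for peaks in the thresholded lists of both replicates, an alternative chosen after the data were seen. It was 0.305 for the stronger peaks, above the list's median signal, and 0.286 to 0.345 with either replicate left out.

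The pooled ranked share of 11.8% was 11.9% to 19.6% with either replicate left out, 16.3% with any overlap of at least 1 bp, 8.945% with 250 bp on either side of the start and 3.82% for entries in both replicates, the last chosen after the data were seen. The ratio of 0.434 was 0.450 to 0.660 with either replicate left out, 0.506 with any overlap, 0.3645 within chromosomes without GC and 0.267 for entries in both replicates. The median signal of 19.02 was 10.3 to 11.6 in single replicates, whose lists had medians of 13.3 and 10.9 over all entries against 19.9 in the pooled list. The cause of the other shifts was not tested. No paired analysis was possible because there is 1 group. The unknown depth limits what a missing entry shows.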
